A study of Mus musculus with 32 samples.

Results

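The acyl-CoA thioesterase genes Acot1, Acot2, Acot3, Acot4, Acot5, Acot6 and Acot12 were examined for HNF4A binding in the jejunum. Peaks of the 8 HNF4A ChIP-seq lists were merged into a site where they shared 1 bp or more. A site was kept when it lay in the GENCODE M1 body of 1 of these 7 genes or within 20 kb either side, and it was assigned to the member with the nearest start. This rule kept 23 of 45552 merged sites, 13 in the Acot1 to Acot6 cluster on chromosome 12 and 10 at Acot12 on chromosome 13. The lists came from jejunal intestinal epithelial cell (IEC) preparations of male C57BL/6J mice aged 10 to 12 weeks, 1 list per mouse. In the GF+HFM condition 4 mice were germ-free, and in the CV+HFM condition 4 germ-free mice had been colonized with a conventional microbiota for 14 days. All 8 mice received a high-fat meal (HFM) by gavage and were sampled 2 hours later, and no mouse without the meal was analysed here. The cells were scraped from opened tissue without sorting, so that crypt and mesenchymal cells could be present beside villus epithelium.

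Acyl-CoA thioesterases cleave fatty acyl-CoAs into free fatty acids and coenzyme A, and so set how much activated fatty acid is open to oxidation, esterification or export. Acot1 encodes a cytosolic enzyme and Acot2 its mitochondrial relative, while Acot3, Acot4, Acot5 and Acot6 encode peroxisomal enzymes. These genes stand side by side and share an enzyme fold. Acot12 encodes a cytosolic acetyl-CoA hydrolase of an unrelated fold. Several of the clustered genes are classical targets of the fatty acid sensor PPARA. HNF4A is a nuclear receptor that keeps enterocytes differentiated and binds near many of their lipid genes. It recognizes direct repeats of a hexamer with 1 base between the copies (DR1), which PPARA dimers also bind, and a more selective motif, CAAAGTCCA.

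The sequences that carry the findings are shown in mm9 (NCBIM37) on the plus strand. In the first set, capitals mark matches to DR1, searched as AGGTCANAGGTCA with up to 2 mismatches, or to CAAAGTCCA with up to 1, on both strands in the 200 bp centred on the bases that most calling libraries shared. Shown are the 3 sites called in all 8 libraries (chr12:85346464-85346663, chr12:85379176-85379375 and chr13:91901859-91902058), the site with a peak in every GF+HFM mouse and in 0 CV+HFM mice (chr13:91882615-91882814), and the sites over the starts of Acot1 (chr12:85350364-85350563) and Acot12 (chr13:91880956-91881155).
Acot1 site 3: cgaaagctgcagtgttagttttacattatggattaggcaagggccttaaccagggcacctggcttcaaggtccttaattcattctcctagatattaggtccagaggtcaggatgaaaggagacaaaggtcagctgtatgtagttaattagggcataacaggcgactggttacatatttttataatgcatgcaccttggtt
Acot4 site 2: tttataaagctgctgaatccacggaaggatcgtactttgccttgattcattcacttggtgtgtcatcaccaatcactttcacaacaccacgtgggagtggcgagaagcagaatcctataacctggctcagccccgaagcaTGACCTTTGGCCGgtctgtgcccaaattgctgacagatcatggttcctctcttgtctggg
Acot12 site 6: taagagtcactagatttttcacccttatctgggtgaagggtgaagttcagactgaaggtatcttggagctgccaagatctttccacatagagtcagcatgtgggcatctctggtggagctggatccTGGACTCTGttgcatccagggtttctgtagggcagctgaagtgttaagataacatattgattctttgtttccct
Acot12 site 3: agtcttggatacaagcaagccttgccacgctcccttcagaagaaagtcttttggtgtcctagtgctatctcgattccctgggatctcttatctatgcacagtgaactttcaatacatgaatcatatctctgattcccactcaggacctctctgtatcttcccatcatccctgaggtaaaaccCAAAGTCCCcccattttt
Acot1 site 4: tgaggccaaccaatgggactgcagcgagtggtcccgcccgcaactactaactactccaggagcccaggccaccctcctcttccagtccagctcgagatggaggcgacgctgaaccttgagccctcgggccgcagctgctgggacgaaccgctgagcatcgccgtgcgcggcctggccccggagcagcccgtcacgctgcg
Acot12 site 2: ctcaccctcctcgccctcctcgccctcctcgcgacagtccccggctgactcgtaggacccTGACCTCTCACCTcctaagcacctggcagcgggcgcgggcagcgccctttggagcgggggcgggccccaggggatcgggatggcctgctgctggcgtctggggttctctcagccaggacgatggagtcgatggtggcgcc

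The second set shows that 2 sites of Acot1 hold nearly the same sequence, which matters for where a read can be placed. Acot1 site 1 began 5252 bp past the end of Acot2, and Acot1 site 5 began 2862 bp past the end of Acot1. The stretches chr12:85340340-85340528 and chr12:85361634-85361821 are given with capitals at the bases that differ, 8 substitutions and 1 gap over 189 aligned columns.
Acot1 site 1: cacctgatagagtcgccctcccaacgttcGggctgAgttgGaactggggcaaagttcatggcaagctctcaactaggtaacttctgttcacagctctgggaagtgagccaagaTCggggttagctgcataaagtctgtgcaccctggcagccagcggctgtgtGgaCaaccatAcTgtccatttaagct
Acot1 site 5: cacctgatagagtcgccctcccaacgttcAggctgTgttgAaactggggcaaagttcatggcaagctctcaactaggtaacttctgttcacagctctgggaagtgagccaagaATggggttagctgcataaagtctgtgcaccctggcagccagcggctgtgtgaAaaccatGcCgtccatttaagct

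Both copies held CAAAGTTCA on the plus strand, which differs from the selective motif by 1 base. Of the 23 sites, 8 held a match to CAAAGTCCA with up to 1 mismatch and 4 held a DR1 match with up to 2, where the shares over 45324 sites with a window were 33.5% and 14.5%. At least 1 of the 2 motifs occurred in 11 of the 23 windows (47.8%) and in 44.1% of all windows, so the thioesterase sites held them about as often as other sites. No window of the 23 held an exact match to either motif. At Acot12 site 5, which overlaps exon 4 of the gene, the 2 matches overlapped. The start of Acot4 held DR1 on the minus strand at chr12:85379316-85379328, and the start of Acot12 held the closest DR1 of the 23 windows, AGGTGAGAGGTCA with 1 mismatch, at chr13:91881016-91881028. Acot1 site 3, called in all 8 libraries, held neither motif within these mismatch limits.

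The GF+HFM lists held between 31061 and 36846 peaks. The CV+HFM lists were shorter, with 29345 in replicate 1, 9206 in replicate 2, 21033 in replicate 3 and 4533 in replicate 4. They give positions only, so read depth and peak height are unknown, and a site without a peak is not shown to be unbound. Of all merged sites, the GF+HFM libraries called 64.0% to 76.4% and CV+HFM replicates 1 to 4 called 60.8%, 19.2%, 43.3% and 8.97%. Sites stood at or near 6 of 6 enterocyte markers, 3 of 4 leukocyte markers and 2 of 3 mesenchymal markers. Of 22380 protein-coding genes, 34.5% had no site in the body or 20 kb either side, so most genes had one. A site called in all 8 libraries stood at 3 of the enterocyte markers and at 0 of the others. The share of all genes with such a site was not computed, so these few markers do not show which cells were bound. Lower occupancy per cell and a smaller share of HNF4A-bound cells in a preparation cannot be told apart.

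HNF4A sites were spread unevenly over the family. Acot12 had more sites in its body and 20 kb either side than 94.6% of 22380 protein-coding genes, whose median was 2.00 sites. This count was not adjusted for gene length, and Acot12 has the longest body of the members (chr13:91881117-91925753). By the same count the share was 86.9% for Acot1, 82.7% for Acot4, 76.9% for Acot2, 69.9% for Acot3, 49.8% for Acot6 and 34.5% for Acot5. For the clustered genes, whose neighbourhoods overlap, the numbers of sites were 7 at Acot1, 6 at Acot4, 5 at Acot2, 4 at Acot3, 2 at Acot6 and 1 at Acot5. By nearest start, 6 sites went to Acot1, 3 to Acot4, 2 to Acot6, 1 to Acot2, 1 to Acot5 and 0 to Acot3. Sites therefore gathered over the first part of the cluster, from downstream of Acot2 to intron 1 of Acot4. The longest stretch between neighbouring sites was 38171 bp and held the start of Acot5, and the next, 21247 bp, held the start of Acot3.

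**Figure D1:**
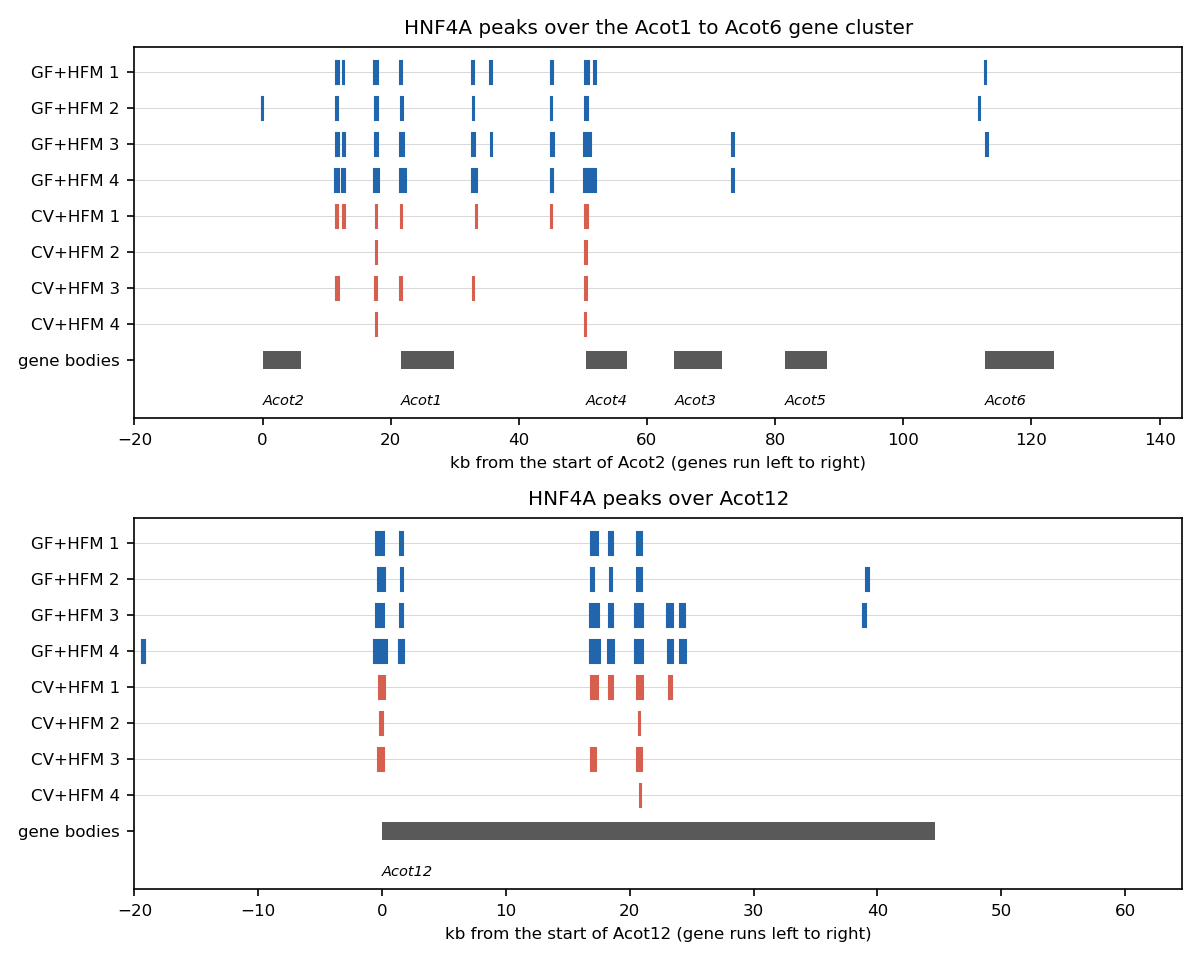
HNF4A peaks of each library (blue, GF+HFM; red, CV+HFM; 1 row per mouse) over the Acot1 to Acot6 cluster (top) and Acot12 (bottom), in kb from the start of Acot2 or Acot12, with gene bodies in grey. Acot1 site 3 and Acot4 site 2 are called in all 4 libraries of both conditions, and no peak stands at the starts of Acot3 and Acot5.

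The question put to these sites was whether peak calls differed between germ-free and colonized mice after the meal. GF+HFM replicates 1 to 4 called 15, 14, 18 and 17 of the 23 sites, and CV+HFM replicates 1 to 4 called 12, 4, 8 and 3. Every GF+HFM library called more of them than any CV+HFM library. The means were 16 ± 1.83 (SD, n = 4) and 6.75 ± 4.11 (SD, n = 4), a difference of -9.25 sites per library, and without CV+HFM replicates 2 and 4, the shortest lists, it was -6.00. As 20 of 23 sites had more calls among GF+HFM mice and 3 had equal calls, the members read like the genome, where 86.5% of all sites did so. When each list was cut to its widest 4533 peaks, the length of the shortest list, 5 of these sites were left. GF+HFM libraries then called 2, 3, 1 and 2 of them and CV+HFM libraries 0, 2, 4 and 3, so the difference turned to 0.250 in favour of CV+HFM. Equal lengths also brought the share of all sites called close together, with 41.9% to 42.4% for GF+HFM libraries against 38.5% to 41.7% for CV+HFM libraries, so that a difference over all sites was removed by the choice itself. The narrowest peak kept differed as well, at 492 to 830 bp across GF+HFM lists against 52 to 514 bp across CV+HFM lists. List length and peak width cannot be told apart in this comparison, which rests on 5 sites.

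**Figure D2:**
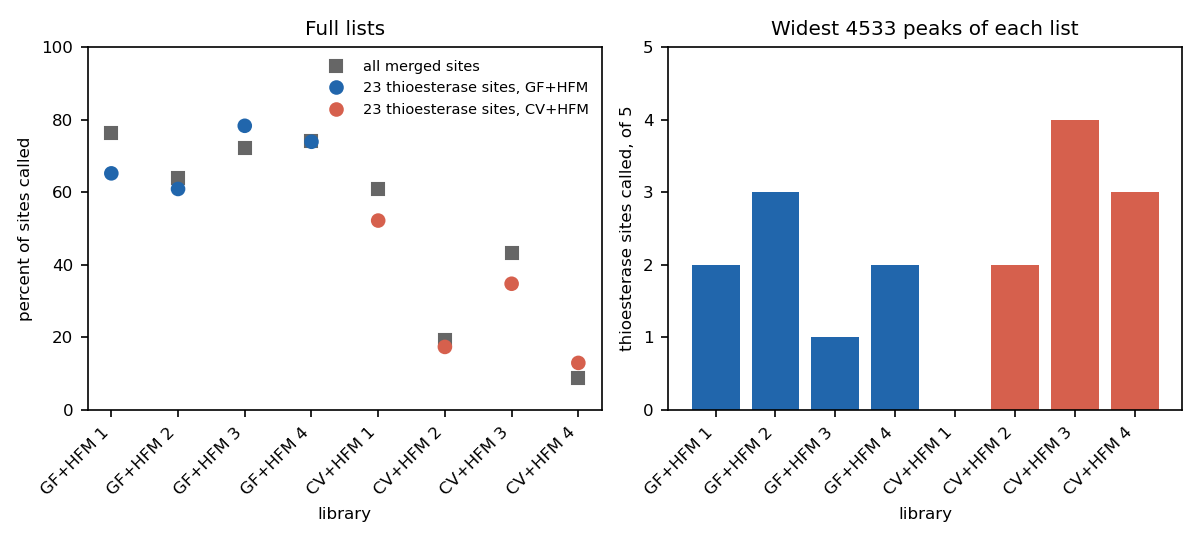
Left, percent of the 23 thioesterase sites (circles; blue, GF+HFM; red, CV+HFM) and of all 45552 merged sites (grey squares) called in each library; the 2 follow each other, from 65.2% and 76.4% in GF+HFM replicate 1 to 13% and 8.97% in CV+HFM replicate 4. Right, thioesterase sites called, of 5, among the widest 4533 peaks of each list, where CV+HFM replicate 3 calls 4 and CV+HFM replicate 1 calls 0.

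Both loci followed the order of conditions over all sites, of which GF+HFM libraries called 64.0% to 76.4% and CV+HFM libraries 8.97% to 60.8%. In the cluster, GF+HFM libraries called 9.25 ± 0.957 (SD, n = 4) of 13 sites and CV+HFM libraries 4.00 ± 2.45 (SD, n = 4). At Acot12, GF+HFM libraries called 6.75 ± 1.5 (SD, n = 4) of 10 sites and CV+HFM libraries 2.75 ± 1.71 (SD, n = 4). Of the 23 sites, 3 were called in all 8 libraries (13%, against 7.56% of all sites) and 11 in no CV+HFM library (47.8%, against 35.6%). These shares rest on few sites and were not tested.

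Width percentile places a peak among the peaks of its own list, from the narrowest near 0 to the widest near 100, and was set to 0 where a library had no peak. Where a library had several peaks in a site, their widths were summed before ranking. This measure takes out the overall difference in width between lists, but not the difference in their length, since a missing peak counts as 0 and ranks come from lists of 4533 to 36846 peaks. A site was called lower in CV+HFM when the two-sided exact permutation test, with 70 ways to relabel the libraries, gave an unadjusted p under 0.05. That was so for 3 of the 23 sites and for 11.3% of all sites, a share close to that of the members. These were Acot1 site 4, Acot4 site 1 and Acot12 site 3, and each had the smallest p that 4 against 4 libraries allow (0.0286). After Benjamini-Hochberg adjustment over 45552 sites, 0 sites of any gene passed 0.05, and the smallest adjusted p of this permutation test was 0.251, against 5194 sites with an unadjusted p under 0.05. As no permutation p could lie below 0.0286, a site could pass after adjustment only if most of all sites reached that floor. The adjusted test therefore could not decide whether a single site differed.

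**Figure D3:**
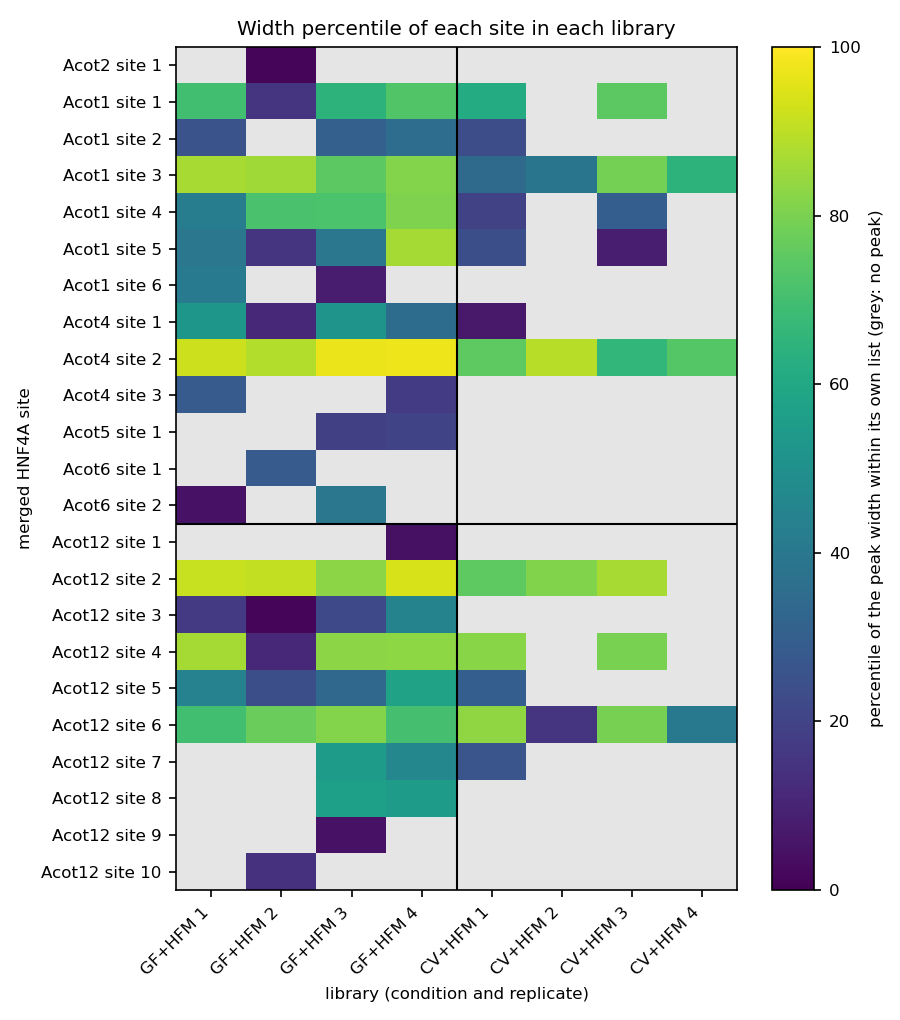
Width percentile of each of the 23 sites (rows, in genome order) in each library (columns), with grey where a library had no peak. Acot4 site 2 is among the wider peaks in each library, at 66.3 or above, while most other sites are grey in CV+HFM replicates 2 and 4.

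Acot1, the cytosolic member of the cluster, had the most sites assigned to it among the clustered genes. Acot1 site 3 (chr12:85346242-85346983, intergenic, midpoint at -3836 bp from the start of Acot1) had a peak in all 8 libraries. Its width percentiles were 87.0, 85.9, 74.7 and 81.5 in GF+HFM replicates 1 to 4 and 34.5, 38.7, 79.1 and 64.7 in CV+HFM replicates 1 to 4. CV+HFM replicates 1 and 2 stood far below the GF+HFM libraries and replicate 3 stood among them, so that the conditions overlapped. The difference of -28.0 percentile points did not pass the test (exact permutation test, two-sided, p = 0.0571), and among the widest 4533 peaks it turned to 16.1.

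At the start of Acot1, site 4 (chr12:85350224-85351148) covered exon 1 and reached into intron 1. Its percentiles were 42.2, 71.3, 71.5 and 80.7 in GF+HFM replicates 1 to 4 and 19.5, 0, 29.9 and 0 in CV+HFM replicates 1 to 4. The 80.7 of GF+HFM replicate 4 is for 732 bp summed over separate peaks (chr12:85350224-85350637 and chr12:85350831-85351148). All GF+HFM values lay above all CV+HFM values, including the 2 CV+HFM libraries that did have a peak. The means were 66.4 ± 16.7 (SD, n = 4) and 12.3 ± 14.9 (SD, n = 4), a difference of -54.1 (exact permutation test, two-sided, p = 0.0286, adjusted 0.251). Without GF+HFM replicate 3, CV+HFM replicate 2 or CV+HFM replicate 4, the difference was -39.4, -50.0 and -50.0. The exact permutation p was then 0.0571 each time, between groups of unequal size. Without both of these CV+HFM libraries the difference was -41.8 (exact permutation test, p = 0.0667, the smallest that 4 against 2 libraries allow). Where at least 50% of the site had to be covered, p rose to 0.429 and the difference was -38.1.

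The other 4 sites of Acot1 lay outside genes. Sites 1 and 5 each had a peak in every GF+HFM mouse and in replicates 1 and 3 of CV+HFM, and their midpoints lay at -10035 and 11449 bp from the Acot1 start. At site 5 the peak of CV+HFM replicate 1 (chr12:85362049-85362284) touched only the wide peak of GF+HFM replicate 4 (chr12:85361483-85362311). It missed the copied sequence, so over that sequence CV+HFM had 1 peak, in replicate 3. Site 2, at -8969 bp, had peaks in 3 GF+HFM mice and 1 CV+HFM mouse, and site 6, at 14048 bp, in 2 GF+HFM mice alone. Acot2, the mitochondrial member, had 1 site (chr12:85328765-85328929, over its start and exon 1). A peak stood there in GF+HFM replicate 2 alone, at percentile 1.79, and the other 7 libraries had none.

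Among the peroxisomal members, Acot4, whose enzyme acts on succinyl-CoA and other dicarboxylyl-CoAs, held the widest site of the family. Acot4 site 2 (chr12:85378907-85380207, 1301 bp, over the start, exon 1 and intron 1) was called in all 8 libraries. Its percentiles were 92.4, 88.6, 96.9 and 97.5 in GF+HFM replicates 1 to 4 and 75.0, 89.2, 66.3 and 73.7 in CV+HFM replicates 1 to 4. CV+HFM replicate 2, the second shortest list, lay within the GF+HFM range and the other 3 CV+HFM libraries lay below it. The means were 93.9 ± 4.19 (SD, n = 4) and 76.1 ± 9.55 (SD, n = 4), a difference of -17.8 (exact permutation test, two-sided, p = 0.0571). Without CV+HFM replicate 2 the difference was -22.2 and the exact permutation p was 0.0286. All 8 peaks shared the 159 bp chr12:85379196-85379354, which includes the first bases of the gene and the DR1 match.

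Acot4 site 1 (chr12:85373776-85374229, intergenic, at -5327 bp) had percentiles of 52.9, 11.6, 51.9 and 35.2 in GF+HFM replicates 1 to 4 and 6.74, 0, 0 and 0 in CV+HFM replicates 1 to 4. Only CV+HFM replicate 1 had a peak there among the colonized mice, and it was narrower in rank than each GF+HFM peak. The difference was -36.2 (exact permutation test, two-sided, p = 0.0286, adjusted 0.251). Without any 1 of the CV+HFM libraries the difference was -37.9 to -35.7 and the exact permutation p was 0.0571. Without replicates 2 and 4 the difference was -34.6 and the exact permutation p was 0.133. The difference thus hardly changed, and the higher p came with groups of unequal size. Acot4 site 3, in intron 1 and in exon 3 of the lincRNA 4732463B04Rik on the other strand, was called in 2 GF+HFM libraries.

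Acot3, which encodes a long-chain acyl-CoA thioesterase, had no site of its own, and the nearest site edge lay 8994 bp from its start. That edge belonged to Acot5 site 1 (chr12:85402088-85402392), which lies between Acot3 and Acot5, at -8035 bp from the start of Acot5. Its percentiles were 0, 0, 19.0 and 20.5 in GF+HFM replicates 1 to 4, and no CV+HFM library called it. Acot6 site 2 (chr12:85441629-85442057, in exon 1) had percentiles of 4.74, 0, 39.7 and 0 in GF+HFM replicates 1 to 4 and also no CV+HFM peak. For both sites GF+HFM libraries with and without a peak were equal in number (exact permutation test, two-sided, p = 0.429). Acot6 site 1, at -923 bp, was called in GF+HFM replicate 2 alone.

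Acot12 held a run of sites from its start to intron 5. Site 2 (chr13:91880432-91881486) covered the starts of Acot12 and of 4833422C13Rik, a processed transcript on the other strand. Its percentiles were 91.7, 91.0, 82.5 and 94.1 in GF+HFM replicates 1 to 4 and 75.1, 80.9, 87.0 and 0 in CV+HFM replicates 1 to 4. The shortest list, CV+HFM replicate 4, had no peak there, and the other CV+HFM values lay close to the GF+HFM range or within it. The difference of -29.1 (exact permutation test, two-sided, p = 0.0571) shrank to -8.83 without that library.

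Site 3 of Acot12 (chr13:91882495-91882926, intron 1, at 1593 bp) was the 1 site of the family with a peak in every GF+HFM mouse and in 0 CV+HFM mice, a pattern of 2.79% of all sites. Its percentiles of 17.0, 1.79, 22.0 and 44.9 placed it in the narrower part of each GF+HFM list. The marked match to CAAAGTCCA, at chr13:91882797-91882805, began just past the bases that the GF+HFM peaks shared, chr13:91882632-91882796. Fisher's exact test of the calls gave p = 0.0286 (two-sided) and an adjusted p of 0.824 over all sites. Its width percentile passed the exact permutation test (p = 0.0286, adjusted 0.251). Without any 1 of the CV+HFM libraries, whose values were all 0, the difference stayed at -21.4 and the exact permutation p was 0.0571. That rise in p came from relabelling groups of unequal size and does not show dependence on a library. By Fisher's exact test 0 of 45552 sites had an adjusted p under 0.05, against 1269 with an unadjusted p under 0.05. Fisher's test has the same smallest p of 0.0286, so its adjusted p could not decide whether a single site differed either. With peaks at least 300 bp wide alone, 1 GF+HFM peak (432 bp, replicate 4) remained at this site, and the count of 1 such site fell to 0.

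Site 6 of Acot12 (chr13:91901549-91902192, intron 4, at 20753 bp) was called in all 8 libraries. Its percentiles were 69.6, 77.0, 81.4 and 70.5 in GF+HFM replicates 1 to 4 and 83.4, 15.4, 79.6 and 40.3 in CV+HFM replicates 1 to 4. CV+HFM replicates 1 and 3 stood as high as the GF+HFM libraries, and the 2 short lists stood below. The difference was -20.0 (exact permutation test, two-sided, p = 0.40), and it turned to 6.85 without CV+HFM replicates 2 and 4. The 8 peaks shared 35 bp, chr13:91901941-91901975. The marked match to CAAAGTCCA, at chr13:91901985-91901993, lay outside these bases.

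The other 7 sites of Acot12 were called less evenly. Site 4 in intron 3 had peaks in 4 GF+HFM mice and 2 CV+HFM mice, and site 5 over exon 4 in 4 and 1. Site 7 in intron 5 had peaks in 2 and 1, and its neighbour site 8 in 2 and 0. Sites 1, 9 and 10 each had 1 peak, all in GF+HFM libraries. None of these 7 sites had an exact permutation p under 0.05.

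Because all 8 libraries called 3445 sites, a site could also be ranked against that common set. Of those sites, 4 (0.116%) passed limma's test on normal scores of width rank with Benjamini-Hochberg adjustment, each ranked lower in CV+HFM, and 431 had an unadjusted p under 0.05. Leaving out CV+HFM replicate 1 raised this count of 4 to 34, and it was 0 without GF+HFM replicate 1, 3 or 4 or CV+HFM replicate 3 or 4. Of the 3 thioesterase sites in the set, 0 passed by limma, and 0 had an unadjusted p under 0.05. On the normal score scale, CV+HFM minus GF+HFM was -0.586 with an SE of 0.472 at Acot1 site 3 (limma adjusted p = 0.589). It was -0.703 with an SE of 0.405 at Acot4 site 2 (limma adjusted p = 0.445). It was 0.0471 with an SE of 0.37 at Acot12 site 6 (limma adjusted p = 0.962).

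Since parts of Acot1 to Acot6 are near copies of each other, a read from 1 gene could map to another there. The share of 50-base words in a site that occur more than once in the genome was measured, 50 bases being the read length. It was 10.5% over the whole cluster with 20 kb either side and 13.6% over Acot12 with 20 kb either side. Repeated words with all copies within the 20 kb neighbourhoods of the 7 genes made up 3.12% and 0.150% of the words there. At each of the 10 Acot12 sites the share of repeated words was 0%. In the cluster it was 32.2% at Acot1 site 1, the highest, 29.5% at Acot1 site 4, 23.2% at Acot1 site 5, 22.4% at Acot4 site 2 and 16.1% at Acot6 site 2. The other cluster sites held 0% to 15.2%. At Acot1 site 1, Acot4 site 2 and Acot6 site 2 every repeated word had all its copies within the 20 kb neighbourhoods of the 7 genes. That held for 233 of the 258 repeated words at Acot1 site 4 and for 104 of the 181 at Acot1 site 5. The 200 bp window of Acot4 site 2 held no repeated word, and neither did that of Acot1 site 3.

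Sequence shared between the gene bodies lay under 3 sites and in 3 genes without a site there. The stretch chr12:85350449-85350921 of Acot1 site 4 was 93.7% identical over 473 bp to Acot4 site 2, and chr12:85379376-85379922 of Acot4 site 2 was 97.1% identical over 547 bp to a stretch of Acot6 that its site 2 overlaps. Copies of Acot1 site 4 also lay in Acot2 (92.9% over 673 bp), Acot5 (93.4% over 472 bp) and Acot3 (92.6% over 458 bp), and no site overlapped those 3 copies. The bases that all 8 peaks shared at Acot4 site 2 ended before the copied stretch began, at chr12:85379354 and chr12:85379376. Outside exons, 454 bp of Acot1 site 1 were 97.6% identical to a stretch that begins before Acot1 site 5, and within site 5 the identity was 97.1% over 340 bp. Whether reads of one copy were counted at another was not tested, because the lists hold no reads.

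**Figure D4:**
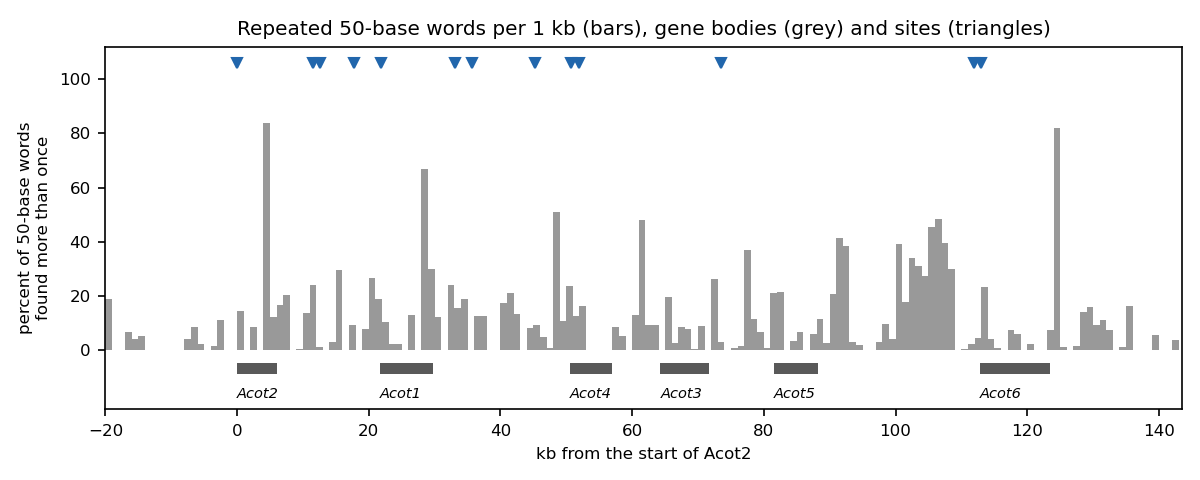
Percent of 50-base words that occur more than once in the genome, in 1 kb steps (bars) along the Acot1 to Acot6 cluster, in kb from the start of Acot2, with gene bodies (grey) and the midpoints of the 13 sites (triangles). Repeated words occur along the whole cluster, both at sites and in stretches without one, and make up 14.8% of the words in the longest stretch without a site.

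For comparison, 9 other genes that act on acyl-CoAs were taken as a list: Acot7, Acot8, Acot9, Acot10, Acot11, Acot13, Them4, Them5 and Baat. Of these, 8 had a site, with 43 sites in all, and Acot10 had none. Acot11, with 15 sites, and Acot7, with 9, had the most. Of the 43 sites, 37 had more calls among GF+HFM mice, 5 were called in all 8 libraries, and 0 had a peak in every GF+HFM mouse and in 0 CV+HFM mice, where these shares over all sites were 86.5%, 7.56% and 2.79%. GF+HFM libraries called 69.8% to 86.0% of them and CV+HFM libraries 14% to 69.8%, where the shares over all merged sites were 64.0% to 76.4% and 8.97% to 60.8%.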

How the data were processed

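HNF4A ChIP-seq peak lists were used, 1 per mouse, from 4 mice in each of GF+HFM and CV+HFM, with groups and replicates from the labels. RNA-seq, H3K27ac, input and other conditions were left out. Reads had been aligned by the authors to mm9 with Bowtie2. The authors called narrow peaks per mouse with MACS2 2.1.1.20160309 against input DNA (1 input library per condition) at a false discovery rate threshold (bandwidth 300 bp), and deposited chromosome, start and end in bp. The deposited lists hold no height, count or p-value, which leaves read depth unknown and counting error without an estimate. The members and lists of genes were chosen with earlier results of these data known.

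Sites, percentiles and exact tests were computed in Python 3.11.15 (numpy 2.4.6, scipy 1.17.1), and rank tests with limma 3.58.1 in R 4.3.3. Exact tests covered all merged sites, and limma the 3445 sites called in all 8 libraries. On simulated data of 3445 sites, 200 of them shifted by 3 SD, limma recovered 89.5% with 4.28% false calls, and made 0 calls without a shift. The simulated noise was independent and normal with the same SD at every site. These rates therefore check the code and do not measure the test on the real lists. Named with full values were the site nearest each start and sites called in all 8 libraries or in 4 and 0, and, chosen after values were seen, Acot4 site 1. Genes follow GENCODE M1, and sequence is NCBIM37, past whose chromosome ends 0 sites reached. Copies were found with blastn 2.17.0. Alternatives were 10 or 50 kb flanks, the widest 4533 peaks, peaks no narrower than 300 bp, 50% of a site covered, libraries left out, percentiles in limma, and a replicate block.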

Additional observations from a re-analysis of the deposited data

Results flagged for a closer look

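In 16 groups of 4 libraries, namely the sites with a peak in every library of a condition and the numbers of sites called, 2 held a library far from the other 3 by Dixon's criterion, and chance gives this in about 1 of 20 groups. Both were GF+HFM replicate 2, the shortest GF+HFM list. At Acot1 site 1 its width percentile was 15.1, where the other GF+HFM libraries had 64.5 to 73.0. At Acot12 site 4 it was 11.6, where the others had 82.7 to 86.4. The peaks behind these values were 197 and 187 bp wide in replicate 2. The cause was not tested.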

How the results depend on the processing

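Read depth is unknown. With the widest 4533 peaks of each list, which changes list length and the narrowest width together, the sites fell to 5, the difference in sites called per library reversed to 0.250, 2 sites had more GF+HFM calls, and 0 sites passed in calls and 0 in width percentile (exact tests). Acot1 site 3 and Acot12 site 6 then reversed to 16.1 and 11.4 percentile points. With peaks at least 300 bp wide, 0 sites differed in calls, and limma's common set held 0 of the 23 sites, so that it gave no value there. With 50% of a site covered, 1 site differed in width percentile. With peaks at least 300 bp wide, the 3 sites called in width percentile were no longer called. Exact permutation p was 0.143 at Acot1 site 4, 0.143 at Acot4 site 1 (-16.5 points) and 1.00 at Acot12 site 3 (-7.91 points). Acot1 site 3, Acot4 site 2 and Acot12 site 2 passed instead (exact permutation p = 0.0286). This cut fell on the lists unequally, as median peak widths were 298 to 464 bp in GF+HFM lists and 103 to 318 bp in CV+HFM lists. At Acot1 site 3 it removed CV+HFM peaks of 268, 166 and 137 bp. These passes therefore cannot be told apart from the difference in width between the lists. With 50% covered, Acot1 site 4, Acot4 site 1 and Acot12 site 3 had exact p of 0.429, 0.143 and 0.429, and Acot12 site 2 passed. That rule measures each peak against the merged site, which at Acot12 site 2 was the 1055 bp peak of GF+HFM replicate 4. The CV+HFM peaks there, 436, 262 and 453 bp, covered less than 50% of it and counted as 0. The pass at Acot12 site 2 therefore rests on the width of GF+HFM peaks that set the rule. The call was also gained at Acot1 site 3 and Acot12 site 2 without CV+HFM replicate 3. Flanks of 10 or 50 kb left 22 or 26 sites, and no call moved by more than 1.5 times.

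Leaving out 1 library at a time gave 20 to 23 sites and a difference of -11.0 to -8.00 sites per library. It gave 16 to 23 sites with more GF+HFM calls, 1 to 3 sites differing in calls and 0 to 4 in width percentile. The count with more GF+HFM calls set numbers of libraries, not shares, against each other in groups of 4 and 3. When a CV+HFM library was left out, a site called in every library was therefore counted too, and the count was 23 each time. Its range does not measure how stable the direction of calls is. The 3 in calls arose without CV+HFM replicate 1. The width percentile count fell to 1 when CV+HFM replicate 2 was left out and to 0 when replicate 4 was. These falls came with groups of unequal size, and at Acot12 site 3 the difference stayed at -21.4 in both. Without CV+HFM replicates 2 and 4, an alternative added with the lists in view, the difference was -6.00, Acot12 site 6 reversed to 6.85, and 0 sites passed in calls and 0 in width percentile, where the smallest exact p possible is 0.0667. By limma 0 thioesterase sites passed in each alternative that gave a value, and at most 1 had an unadjusted p under 0.05.

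Replicate numbers are shared between conditions without a stated pairing. Deviations of same-numbered libraries correlated at 0.0322, 0.102, -0.0737 and 0.110, so the numbers were not taken to pair the mice. GF+HFM replicate 4 alone correlated best with its own number. With the replicate block, 0 thioesterase sites passed in calls and 0 in width percentile, because 4 pairs cannot give an exact p below 0.125. By limma with the block, 2 of 3445 sites passed and 0 of them were thioesterase sites.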
